A study of Homo sapiens with 6 samples.

Results

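The mitochondrial ribosomal protein (MRP) genes are the nuclear genes for the proteins of the ribosome inside mitochondria. They were taken from the count tables by name, as the symbols MRPL or MRPS followed by digits and an optional letter, with pseudogenes left out. The rule found 77 genes among 24462 different symbols, 48 with an MRPL and 29 with an MRPS symbol, and all 77 passed the filter on low counts, which left 12514 genes of the whole table to be tested. The genes lie on 21 chromosomes. Of their products, 50 belong to the large subunit and 26 to the small subunit, and MRPS36 is counted to neither because its product is a subunit of the ketoglutarate dehydrogenase complex.

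The dataset compared RNA from 2 cell lines in bulk, with 3 libraries each. The first line was 1CT, a human colonic epithelial cell (HCEC) line that was immortalized with telomerase and is wild type for the tumor suppressor APC. The second was 1CT-A, the same line with APC knocked down, and the construct and the passages between the lines were not given in the sources used here. Both lines were grown without treatment in the same medium, DMEM and M199 with EGF, hydrocortisone, insulin, selenite, transferrin and 2% FBS. Nothing in the labels says that the libraries of a line came from separate cultures, so the p-values measure only the spread between these libraries. Each line is 1 line, so APC knockdown cannot be told apart from other differences between the lines.

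Mitochondria keep a small genome that encodes core subunits of the respiratory chain, and these are made on the mitochondrial ribosome. Its RNAs come from the mitochondrial genome, while every one of its proteins is encoded in the nucleus, made in the cytosol and imported. The small subunit decodes the messenger RNA, and the large subunit forms peptide bonds and releases the new chain near the inner membrane, where most of the products end up. Some of the proteins have counterparts in bacterial ribosomes and others were added in the course of mitochondrial evolution. Colonic epithelium relies on oxidative metabolism, and APC loss is a common early step of colorectal tumors.

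The files held whole-number counts from 3′ end sequencing, in which a transcript gives about 1 fragment whatever its length, so levels are given as CPM, the counts of a gene scaled to the same total in every library, without division by length. The 1CT libraries held between 7788679 and 8452258 counts, and those of 1CT-A between 11158108 and 12602988. The smallest count of any MRP gene in any library was 51. APC, the targeted gene, had a mean of 46.6 ± 2.75 CPM in 1CT against 31.9 ± 2.21 CPM in 1CT-A (SD, n = 3), a log2 fold change of -0.58 (edgeR's quasi-likelihood test, adjusted p = 1.8e-04). Of 11 epithelial marker genes, 6 had at most 3 counts in every library, EPCAM among them, and their summed level lay between 41.1 and 45.3 CPM in 1CT against 23.5 to 30.3 CPM in 1CT-A. The summed level of 10 mesenchymal markers lay between 44933 and 53004 CPM in 1CT against 22104 to 23505 CPM in 1CT-A. FN1 alone made up most of that sum (44241 ± 3619 against 18128 ± 829 CPM). At the same threshold 6 of the 10 genes were lower while COL3A1 and TWIST1 were higher, beside 26.0% lower and 25.0% higher of all genes tested. All 4 endothelial markers were at or below 3 counts, and the 5 immune markers summed to between 12.4 and 15.1 CPM in 1CT against 8.97 to 10.4 CPM in 1CT-A. Most defining markers of the labelled epithelial type were thus at or near 0 in both lines, and the part of these markers in the MRP values was not tested. In bulk RNA, fewer cells of a type and less RNA per cell cannot be told apart.

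The MRP genes had higher levels in 1CT-A than in 1CT, by small amounts and in both subunits. At an adjusted p under 0.05, 45 of the 77 genes were higher in 1CT-A (58.4%), against a background of 25.0% of all genes tested. MRPL41 was the 1 gene that was lower, against a background of 26.0%, and 31 genes were not called. The calls in either direction covered 46 genes, or 59.7%, beside 51.0% of all genes tested. The log2 fold change was above 0 for 71 of the 77 genes, and its median was 0.29, which is a fold of 1.22, with quartiles of 0.13 and 0.42. Over all 12514 genes the median was -0.01 with quartiles of -0.40 and 0.33. Most MRP genes are well counted, so genes averaging at least 10 CPM are a closer background. Among these 8224 genes 54.9% were called, 31.4% higher and 23.4% lower, and the median was 0.06. The plot of all 77 fold changes shows the genes in order.

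**Figure D1:**
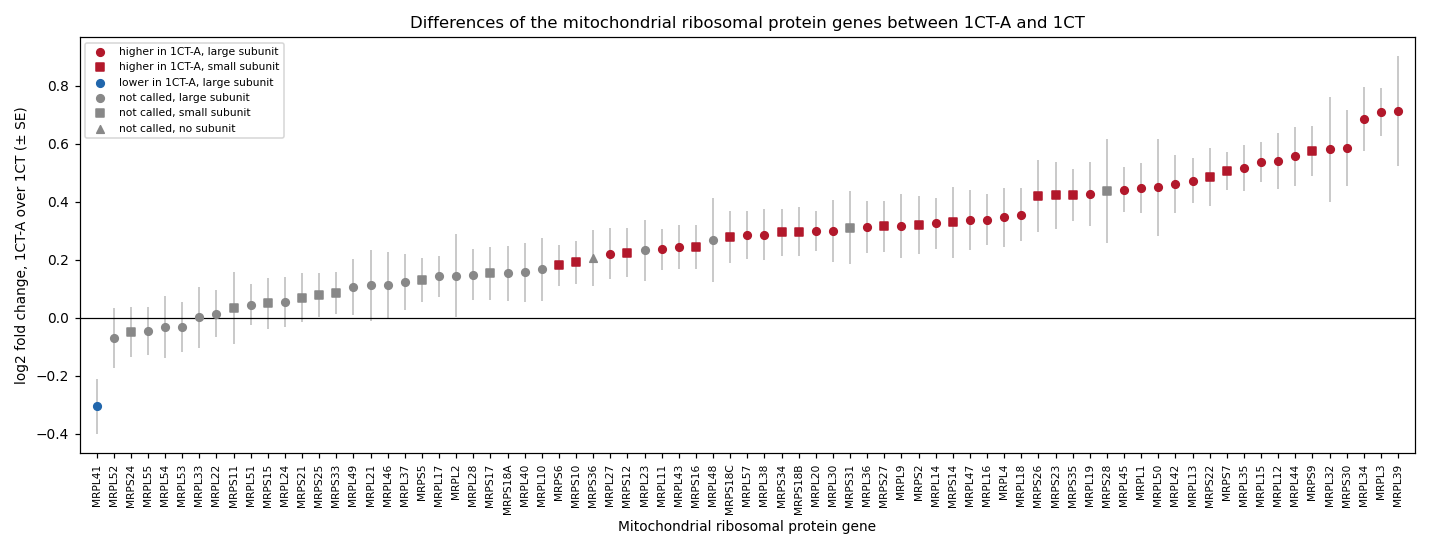
Log2 fold change of 1CT-A over 1CT for each of the 77 mitochondrial ribosomal protein genes, sorted, with bars for the standard error of the fit over 3 libraries a line. Red symbols are genes called higher, the blue symbol is MRPL41, called lower, and grey symbols were not called; circles are large subunit genes, squares small subunit genes and the triangle MRPS36.

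None of the 77 genes reached a fold change of 2 together with an unadjusted p under 0.01, the rule of the study's methods. The count was 0 with edgeR, DESeq2 and limma-voom, whereas 13.4% of all genes tested and 6.72% of those with at least 10 CPM passed in edgeR. At an unadjusted p under 0.05, edgeR gave 48 MRP genes higher and 1 lower. The share of all genes at that threshold was not taken, here or for the lists below. DESeq2 called 41 genes higher and 1 lower at an adjusted p under 0.05, and limma-voom 46 and 1. Of all genes called, 2799 of 5648 were higher in DESeq2 and 3174 of 6449 in limma-voom. The levels of the 3 libraries of 1CT-A lay wholly above those of 1CT for 53 genes and wholly below for MRPL41, where 31.8% and 27.9% of all genes tested did so.

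Added over all 77 genes, the level was 6363, 6111 and 6440 CPM in the 1CT libraries and 7674, 7691 and 7708 CPM in the 1CT-A libraries. The 1CT-A libraries lay close together, and each was above each 1CT library. The means were 6304 ± 172 and 7691 ± 16.9 CPM (SD, n = 3), a ratio of 1.22, or 1.19 with TMM-normalized CPM. The large subunit genes went from 3695 ± 75.5 to 4549 ± 57.9 CPM and the small subunit genes from 2560 ± 122 to 3084 ± 56.7 CPM. The ratio of large to small was 1.45 ± 0.059 in 1CT and 1.48 ± 0.046 in 1CT-A, a difference within the spread of the libraries. The 5 genes with the highest level made up 20.8% of the sum in 1CT and 20.6% in 1CT-A, so the sum was not carried by a few genes. Across the 77 genes the mean levels in the lines had a Spearman rho of 0.98, a description over genes that share their libraries.

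**Figure D2:**
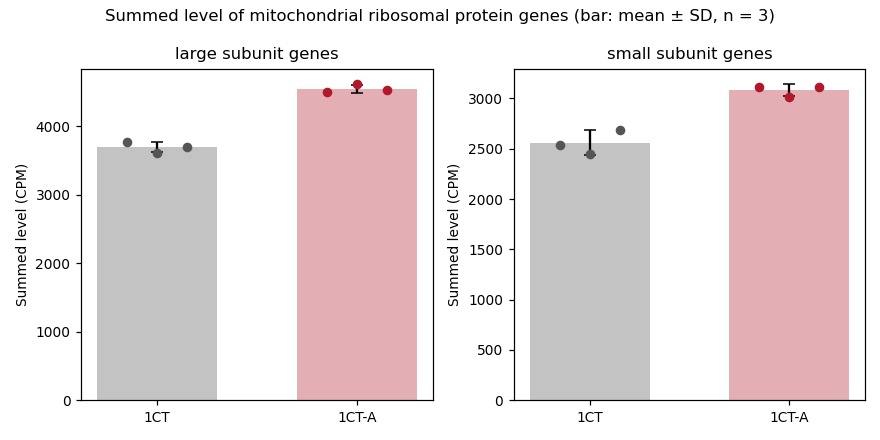
Summed CPM of the 50 large subunit genes (left) and the 26 small subunit genes (right) in each library, with bars for the mean and error bars for the SD of 3 libraries. In both panels the 3 points of 1CT-A lie above the 3 points of 1CT.

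Among the proteins of the large subunit, 29 of 50 genes were higher and 1 was lower, with a median log2 fold change of 0.29. The 31 with bacterial counterparts had 20 higher and none lower, with a median of 0.31. The 19 particular to mitochondria had 9 higher and MRPL41 lower, with a median of 0.24. In the small subunit 16 of 26 genes were higher and none lower, also with a median of 0.29. Of its 17 conserved members 10 were higher (median 0.22), and of its 9 mitochondrial members 6 were higher (median 0.32). Every class thus had a share of higher genes above the background of 25.0%, and differences between the classes were not tested.

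By place in the ribosome, 3 of the 4 genes of the stalks, MRPL1, MRPL10, MRPL11 and MRPL12, were higher, and MRPL10 was not called. The stalks receive the translation factors that use GTP. Around the exit of the peptide tunnel, where the new chain meets the membrane, 5 of 9 genes were higher with a median of 0.34. In the central protuberance, which touches the small subunit and the transfer RNAs, 3 of 7 were higher with a median of 0.22. In the head of the small subunit, which holds part of the decoding path, 5 of 8 were higher with a median of 0.32. These shares stand beside 25.0% of all genes tested and 31.4% of those averaging at least 10 CPM, and the regions, of 4 to 9 genes each, were not tested against each other.

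The 8 largest rises among called genes that averaged at least 10 CPM were MRPL39, MRPL3, MRPL34, MRPS30, MRPL32, MRPS9, MRPL44 and MRPL12. Their order changed under a correction of each library for GC content, which was chosen after seeing the data. With the GC correction all 8 were still called, but MRPL12 came first among them with a log2 fold change of 0.74. It was followed by MRPL34 (0.71), MRPL39 (0.62), MRPS9 (0.61), MRPL3 (0.61), MRPL44 (0.51), MRPL32 (0.50) and MRPS30 (0.47). MRPL3, on chromosome 3, encodes a conserved protein that reaches toward the peptidyl transferase centre. Its levels were 155, 158 and 129 CPM in 1CT and 234, 249 and 260 CPM in 1CT-A. The groups were far apart, and the log2 fold change was 0.71 (SE 0.08, edgeR adjusted p = 1.3e-05). MRPL34, on chromosome 19, encodes another conserved protein of the large subunit, and it had 26.3, 25.5 and 21.1 CPM in 1CT against 38.8, 44.9 and 36.9 CPM in 1CT-A. Every 1CT-A library was again above every 1CT library, and the log2 fold change was 0.69 (SE 0.11, edgeR adjusted p = 1.9e-04).

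MRPL39 and MRPL44 encode mitochondrial additions to the large subunit near the tunnel exit, the latter with a fold like that of ribonuclease III. MRPL39, on chromosome 21, was the lowest of all 77 genes in 1CT, with 12.3, 9.18 and 6.55 CPM, and had 17.2, 16.7 and 13.6 CPM in 1CT-A. Its log2 fold change of 0.71 (SE 0.19, edgeR adjusted p = 0.0070) was as large as that of MRPL3 but rests on 51 to 192 counts a library. MRPL44, on chromosome 2, had 30.6, 27.9 and 24.1 CPM in 1CT and 43.3, 42.8 and 39.0 CPM in 1CT-A. The lines did not overlap for either gene, and MRPL44 rose by a log2 fold change of 0.56 (SE 0.10, edgeR adjusted p = 5.6e-04).

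MRPL12, on chromosome 17, encodes the stalk protein that recruits translation factors and has also been described as a partner of the mitochondrial RNA polymerase. It had 91.7, 75.6 and 98.9 CPM in 1CT and 136, 128 and 134 CPM in 1CT-A, a log2 fold change of 0.54 (SE 0.10, edgeR adjusted p = 4.5e-04). An annotated read-through gene shares 701 exon bases with it, so its counts may include that transcript. MRPS9, on chromosome 2, encodes a conserved protein of the small subunit head, the part of the ribosome next to the decoding path. It had 47.2, 52.8 and 47.0 CPM in 1CT against 80.1, 72.1 and 72.6 CPM in 1CT-A (log2 fold change 0.57, SE 0.09, edgeR adjusted p = 1.1e-04). Among the 8 genes with the largest rises it was the only one whose product sits in the small subunit.

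MRPS30, on chromosome 5, carries a small subunit name but its product lies in the large subunit. Its levels were 29.8, 20.6 and 20.0 CPM in 1CT and 37.5, 36.0 and 35.4 CPM in 1CT-A. The lines did not overlap, and the log2 fold change was 0.59 (SE 0.13, edgeR adjusted p = 0.0025). MRPL32, on chromosome 7, encodes a conserved large subunit protein that is cut by a protease of the inner membrane before it joins the ribosome. It had 68.6, 62.9 and 33.4 CPM in 1CT and 79.2, 92.9 and 81.6 CPM in 1CT-A. The 1CT library numbered 3 was far below its partners, and the call (log2 fold change 0.58, SE 0.18, edgeR adjusted p = 0.017) was lost in DESeq2 (adjusted p = 0.12) and without replicate 2 of 1CT-A (edgeR adjusted p = 0.069). Without replicate 3 of 1CT the log2 fold change of MRPL32 was 0.34 (edgeR adjusted p = 0.0028), against 0.58 with all libraries. The plot of levels by library shows these values for 6 of the genes that rose most.

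**Figure D3:**
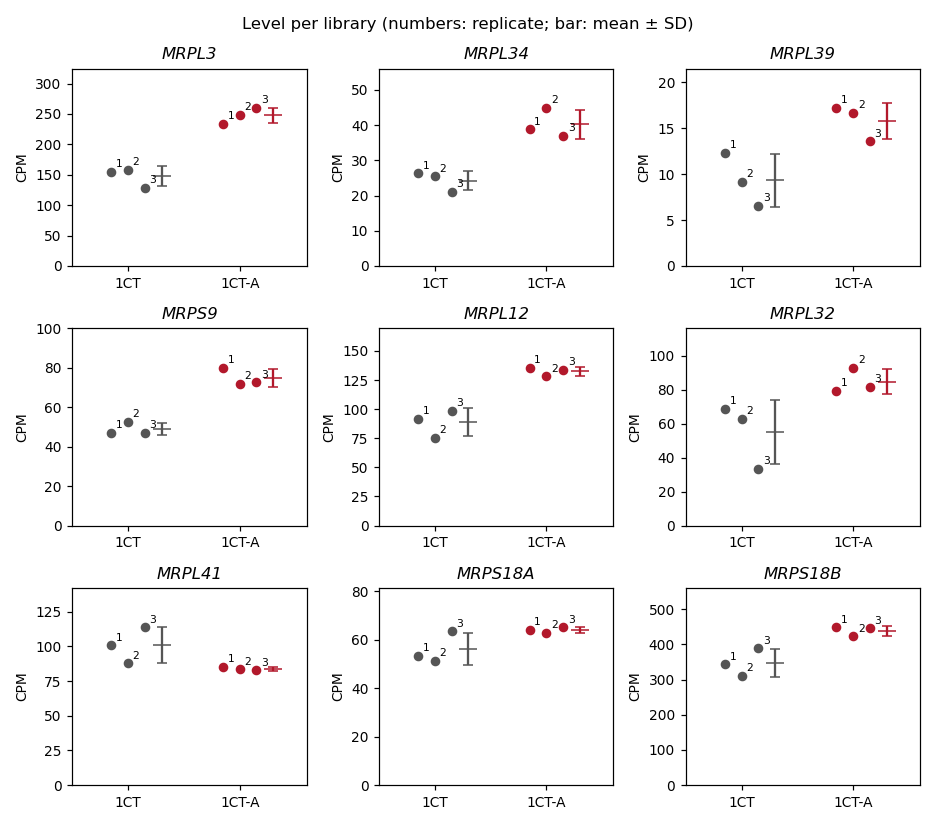
CPM in each library of 9 mitochondrial ribosomal protein genes, with the replicate number beside each point and the mean ± SD of 3 libraries at the side; each panel starts at 0. MRPL3, MRPL34, MRPL39, MRPS9, MRPL12, MRPL32 and MRPS18B lie higher in 1CT-A, MRPL41 lies lower, and MRPS18A overlaps between the lines.

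MRPL41, on chromosome 9, encodes a mitochondrial addition to the large subunit that has also been studied in cell cycle control. It had 101, 87.9 and 114 CPM in 1CT and 85.2, 83.4 and 82.7 CPM in 1CT-A. The 3 values of 1CT-A were nearly equal and just under the lowest value of 1CT. The log2 fold change was -0.31 (SE 0.10, edgeR adjusted p = 0.016). The call was lost without replicate 2 of 1CT-A (edgeR adjusted p = 0.060), without replicate 3 of 1CT-A (0.064) and with a correction of each library for GC content, under which the log2 fold change was -0.09 (edgeR adjusted p = 0.29). Without replicate 3 of 1CT it was -0.19 (edgeR adjusted p = 0.042).

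The 5 genes with the highest level were MRPS18B, MRPL20, MRPS24, MRPS27 and MRPL43. MRPS18B had 344, 311 and 389 CPM in 1CT and 449, 423 and 446 CPM in 1CT-A (log2 fold change 0.30, SE 0.08, edgeR adjusted p = 0.010). MRPL20, a conserved protein that in bacteria acts early in the assembly of the large subunit, had 309, 292 and 317 CPM in 1CT and 378, 410 and 372 CPM in 1CT-A (log2 fold change 0.30, SE 0.07, edgeR adjusted p = 0.0027). Both had no overlap between the lines and differences much smaller than those of MRPL3. MRPS27, a small subunit protein built of pentatricopeptide repeats, had 203, 193 and 236 CPM in 1CT and 288, 263 and 258 CPM in 1CT-A (log2 fold change 0.32, SE 0.09, edgeR adjusted p = 0.0089).

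MRPL43 had 206, 199 and 196 CPM in 1CT and 264, 223 and 244 CPM in 1CT-A (log2 fold change 0.24, SE 0.08, edgeR adjusted p = 0.018). Its call was lost without replicate 1 of 1CT-A (edgeR adjusted p = 0.091), without replicate 3 of 1CT-A (0.052) and with upper-quartile normalization (0.060). MRPS24, whose product lies at the entry of the messenger RNA, had 237, 246 and 248 CPM in 1CT and 229, 220 and 276 CPM in 1CT-A. Its lines overlapped, and the log2 fold change was -0.05 (SE 0.09, edgeR adjusted p = 0.65). The counts of MRPS24 can include a read-through transcript with URGCP that shares 606 exon bases.

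MRPS18A, MRPS18B and MRPS18C are paralogs that descend from 1 bacterial protein and take different places, MRPS18A in the large subunit and the others in the small subunit. MRPS18A had 53.4, 51.3 and 63.6 CPM in 1CT and 64.2, 62.8 and 65.1 CPM in 1CT-A. Its highest 1CT library reached into the range of 1CT-A, and it was not called (log2 fold change 0.15, SE 0.09, edgeR adjusted p = 0.19). Without replicate 3 of 1CT it was called (0.27, edgeR adjusted p = 0.0085), as with the GC correction (0.31, edgeR adjusted p = 0.0047). MRPS18C had 34.3, 32.2 and 31.6 CPM in 1CT and 37.9, 40.6 and 43.7 CPM in 1CT-A (log2 fold change 0.28, SE 0.09, edgeR adjusted p = 0.021), and lost its call without replicate 2 of 1CT (edgeR adjusted p = 0.055) and without replicate 3 of 1CT-A (0.10). MRPS18C lost it also with the GC correction (edgeR adjusted p = 0.095) and with upper-quartile normalization (0.056). MRPS18B stood in 7 entries of each file, 6 of them at 0 in every library. In the annotation MRPS18A shares 705 exon bases with RSPH9 and MRPS18C shares 1296 with ABRAXAS1, each on the other strand, and whether the counting used the strand was not given.

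MRPS36, the ketoglutarate dehydrogenase subunit, had 56.4, 47.2 and 43.9 CPM in 1CT and 55.1, 58.9 and 60.9 CPM in 1CT-A. The lines overlapped and it was not called (log2 fold change 0.21, SE 0.10, edgeR adjusted p = 0.093), but it was called without replicate 1 of 1CT (0.32, edgeR adjusted p = 0.018). The smallest called change was that of MRPS6, with 117, 121 and 124 CPM against 137, 145 and 140 CPM (log2 fold change 0.18, SE 0.07, edgeR adjusted p = 0.045). It was lost without any 1 of the libraries except replicate 3 of 1CT, with an adjusted p from edgeR of 0.071 to 0.14 in those fits. The largest change without a call was that of MRPS28, with 21.3, 15.6 and 11.2 CPM in 1CT and 20.4, 25.5 and 21.2 CPM in 1CT-A (log2 fold change 0.44, SE 0.18, edgeR adjusted p = 0.058). MRPS28 was 0.25 without replicate 3 of 1CT (edgeR adjusted p = 0.15) and was called without replicate 1 of 1CT (0.70, edgeR adjusted p = 0.0039), and limma-voom called it too (adjusted p = 0.040). MRPS6 has close replicates and MRPS28 wide ones, so the threshold separated these genes by their spread and not by the size of the change. In the annotation MRPS28 shares 471 exon bases with another gene on the same strand, and MRPS6 shares 168 with SLC5A3. The counts of both may include those transcripts.

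The pseudogenes MRPS31P5, MRPL42P5 and MRPL45P2 had counts of their own and were left out. MRPS31P5 had 70 to 91 counts a library beside 97 to 245 of MRPS31, so reads may be shared between these copies and the value of MRPS31 is uncertain. The other pseudogenes had at most 13 counts, beside at least 336 of MRPL42 and 628 of MRPL45.

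The 1CT library numbered 3 stood apart from its partners, with a chi-square of 10.2 and 12.3 against them for each degree of freedom, where the other pairs within a line had 3.805 to 5.84. In that library the MRP genes were spread out: 31 had their lowest and 33 their highest level of the 1CT libraries there. Its deviations from the other 1CT libraries followed the GC content of the last 500 bases of the transcript, with a Spearman rho of 0.64 over the 77 genes. Taken from the mean of all 6 libraries, its deviations had a rho of 0.34 over 11534 genes. The deviations of the other libraries from their partners over the 77 genes had a rho of -0.44 and -0.51 in 1CT libraries 1 and 2. In 1CT-A libraries 1, 2 and 3 it was 0.35, -0.20 and -0.21. The log2 fold changes of the MRP genes fell with GC content, with a Pearson r of -0.41 and a Spearman rho of -0.40 across 77 genes that share their libraries. The r was -0.16 without this library and 0.07 after a GC correction of every library. Without this library 48 MRP genes were higher and 1 was lower. With the GC correction 44 were called, all higher, and 39 of these were among the 46 of the uncorrected fit. Of all genes called, 3252 of 6551 were higher without this library and 2951 of 5993 with the GC correction. The part of GC content in the fold change of single genes was otherwise not tested.

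**Figure D4:**
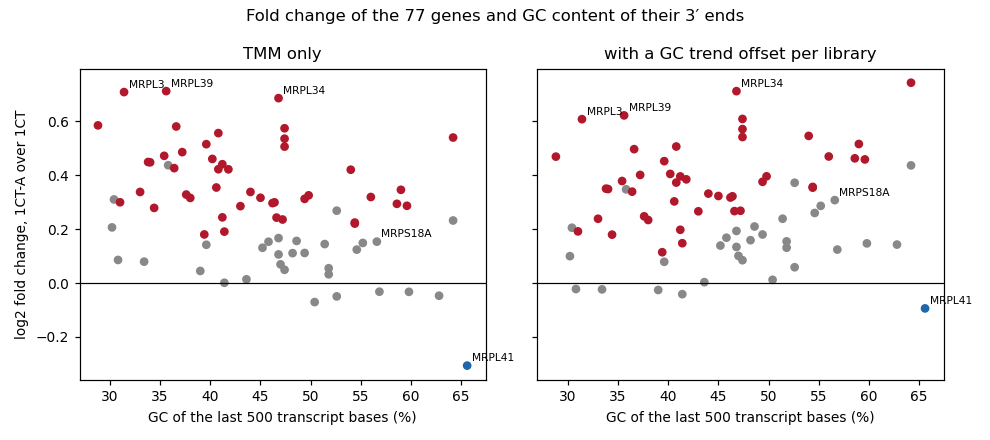
Log2 fold change of 1CT-A over 1CT of the 77 genes against the GC content of the last 500 bases of the transcript, on the left with TMM normalization only and on the right with a GC correction of each library. Colors give the calls of the uncorrected fit (red higher, blue lower, grey not called); the downward trend on the left (r = -0.41) is absent on the right (r = 0.07).

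Of the 46 called genes, 26 were called without each library in turn, and 25 of them in every fit that shared its estimate of the spread across genes. How many of all called genes kept their calls in this way was not taken, so these counts have no background. MRPL39, MRPL3, MRPL34, MRPS30, MRPS9, MRPL44, MRPL12, MRPS18B, MRPL20 and MRPS27 were among the 25.

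The MRP genes are spread over 21 chromosomes, though some are neighbours, such as MRPL46 and MRPS11 on chromosome 15. The promoters of the MRP genes were read for short motifs of factors known from mitochondrial genes. The RefSeq promoters (GRCh38.p14, 250 bases before to 50 after the start) were found for 68 of the 77 genes. Motifs were searched on both strands. The ETS core CCGGAAG, bound by GABPA among others, was found in 28 of the 68 (41.2%), beside 19.9% of 9331 promoters of tested genes and 10.3% of all 35116. The YY1 motif was found in 13 (19.1%), beside 3.88% and 1.63%. Counted over every listed promoter of the MRP genes, 10 had a YY1 match that ended after the start, and these need not be among the 13. The NRF1 motif was found in 7 (10.3%), beside 8.49% and 4.04%, the E-box CACGTG in 6 (8.82%), beside 10.3% and 7.26%, and the TATA box TATAAA in 2 (2.94%), beside 5.36% and 11.5%. Among the 42 genes with a promoter that were higher, 38.1% had the ETS core and 19.0% the YY1 motif, and among the 25 that were not called 48.0% and 20.0% did. These shares are a description, and the part of the motifs in the fold changes was not tested.

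Windows of 150 bases before the start are printed for MRPL20 (chr1:1407294-1407443, minus strand), MRPS9 (chr2:105037919-105038068, plus strand), MRPS18A (chr6:43687792-43687941, minus strand) and MRPL41 (chr9:137551729-137551878, plus strand). MRPL20, MRPS9 and MRPS18A are genes given above with their level in every library, and their windows hold a motif and no annotated exon, and MRPL41 is the gene that fell. The windows lie in the promoter directly upstream of the first exon. Capitals mark the ETS core in MRPL20 and MRPS18A and the NRF1 motif in MRPS9, and none of the 5 motifs was found in the window of MRPL41. Genes that rose lacked matches too. Among the largest rises, MRPL39, MRPL34, MRPS30, MRPL32, MRPL44 and MRPL12 had no ETS, NRF1, YY1 or E-box match in this window. MRPL3 and MRPS9 had 1 match each.
MRPL20: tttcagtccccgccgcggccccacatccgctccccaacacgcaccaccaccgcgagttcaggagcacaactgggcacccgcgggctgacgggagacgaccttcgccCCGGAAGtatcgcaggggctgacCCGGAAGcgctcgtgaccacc
MRPS9: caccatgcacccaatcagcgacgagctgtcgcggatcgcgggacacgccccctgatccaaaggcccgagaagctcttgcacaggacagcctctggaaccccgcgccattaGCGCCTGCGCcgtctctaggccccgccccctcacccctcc
MRPS18A: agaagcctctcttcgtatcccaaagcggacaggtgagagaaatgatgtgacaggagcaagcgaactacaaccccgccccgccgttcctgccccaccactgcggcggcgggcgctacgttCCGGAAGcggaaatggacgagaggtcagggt
MRPL41: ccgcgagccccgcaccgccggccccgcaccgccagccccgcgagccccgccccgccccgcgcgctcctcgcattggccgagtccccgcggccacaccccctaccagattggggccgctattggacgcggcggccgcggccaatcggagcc
The windows of MRPL20 and MRPS18A both carry the ETS core close to the start. A match names a string of letters and says nothing of binding in these cells.

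The list of further ribosome proteins held 7 genes, 6 with symbols outside the naming rule and MRPL57, listed under its older symbol MRP63. ICT1, a peptidyl-tRNA hydrolase built into the large subunit, had 75.8, 77.8 and 77.4 CPM in 1CT and 104, 111 and 102 CPM in 1CT-A, and rose by a log2 fold change of 0.42 (edgeR adjusted p = 4.1e-04). CHCHD1, of the small subunit, lay between 59.3 and 74.8 CPM in 1CT against 88.8 to 105 CPM in 1CT-A and rose (log2 fold change 0.46, edgeR adjusted p = 0.0014). MRPL57, already counted among the 77, was the other one called (log2 fold change 0.29, edgeR adjusted p = 0.011). DAP3 (0.11), PTCD3 (0.05), AURKAIP1 (0.05) and GADD45GIP1 (-0.03) were not called, with these log2 fold changes, though AURKAIP1 was with the GC correction (0.24, edgeR adjusted p = 0.010), so 3 of the 7 listed genes were higher and none was lower, and of the genes outside the rule ICT1 and CHCHD1 were the ones called. The background was 25.0% higher and 26.0% lower.

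Factors that build the mitochondrial ribosome had 11 of 26 genes higher and none lower, with a median log2 fold change of 0.29, beside the background of 25.0% higher. RNMTL1, a methyltransferase of the large ribosomal RNA, had 9.58, 6.64 and 8.09 CPM in 1CT and 15.1, 17.2 and 18.1 CPM in 1CT-A, and rose by a log2 fold change of 1.01 (SE 0.15, edgeR adjusted p = 1.3e-04). FTSJ2, another methyltransferase of that RNA, had 18.9, 19.8 and 22.5 CPM in 1CT and 37.1, 33.4 and 34.0 CPM in 1CT-A (log2 fold change 0.74, SE 0.11, edgeR adjusted p = 7.9e-05). Both log2 fold changes were above that of any MRP gene, that of FTSJ2 by less than its standard error. The count of genes lower was 0 also in DESeq2, in limma-voom and at an unadjusted p under 0.05.

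Mitochondrial translation factors had 10 of 17 genes higher and none lower, beside 25.0% and 26.0% of all genes tested, with a median of 0.21, and again 0 lower in DESeq2, limma-voom and at an unadjusted p under 0.05. TSFM, the exchange factor of the elongation factor that delivers transfer RNAs, had 70.0, 70.6 and 49.8 CPM in 1CT and 109, 110 and 99.3 CPM in 1CT-A (log2 fold change 0.71, edgeR adjusted p = 1.9e-04). GUF1, a GTPase of stalled mitochondrial ribosomes, rose by 0.61 on the log2 scale (edgeR adjusted p = 0.0012). Of the mitochondrial transfer RNA synthetases, 5 of 20 (25.0%) were higher and 2 were lower, a share higher at the background of 25.0%. IARS2 (log2 fold change 0.53, edgeR adjusted p = 0.0042) and WARS2 (0.44, 0.034) rose, and RARS2 (-0.47, 0.013) and CARS2 (-0.29, 0.049) fell. DESeq2 called 3 of these synthetase genes, all higher, and WARS2, RARS2 and CARS2 were not among them (DESeq2 adjusted p = 0.074, 0.068 and 0.089). Without replicate 3 of 1CT the log2 fold change of CARS2 was -0.12 (edgeR adjusted p = 0.22) and WARS2 also lost its call (0.057), and without replicate 3 of 1CT-A the calls of WARS2 (0.063), RARS2 (0.071) and CARS2 (0.12) were all lost.

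Genes for the upkeep and transcription of mitochondrial DNA had 6 of 13 higher and none lower, beside 25.0% and 26.0% of all genes tested, with a median of 0.29. At an unadjusted p under 0.05 in edgeR 8 were higher and 0 lower, without a share of all genes to set beside them. DESeq2 and limma-voom gave 6 and 0 each. TFAM, which packs mitochondrial DNA and starts its transcription, had 88.3, 86.3 and 80.2 CPM in 1CT and 165, 158 and 160 CPM in 1CT-A. The lines were far apart and each was tight, and the log2 fold change was 0.88 (SE 0.07, edgeR adjusted p = 5.7e-07). TFB2M, the partner of TFAM in transcription, had 10.1, 8.81 and 4.11 CPM in 1CT and 12.5, 13.5 and 13.4 CPM in 1CT-A (log2 fold change 0.73, SE 0.22, edgeR adjusted p = 0.015). Without replicate 3 of 1CT TFB2M was 0.46 (edgeR adjusted p = 0.016).

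Of 9 nuclear regulators known to act on genes for mitochondria, 8 were tested, 7 were higher and none was lower, beside 25.0% and 26.0% of all genes tested, with a median log2 fold change of 0.61. The count lower was 0 in DESeq2, in limma-voom and at an unadjusted p under 0.05 too. MYC had 8.28, 8.57 and 4.75 CPM in 1CT and 15.4, 21.4 and 17.6 CPM in 1CT-A (log2 fold change 1.29, SE 0.19, edgeR adjusted p = 1.2e-04). Of the GA-binding protein genes, GABPB1 had a log2 fold change of 0.94 (SE 0.15, edgeR adjusted p = 2.5e-04) and GABPA one of 0.63 (SE 0.24, edgeR adjusted p = 0.045). A link between them and the ETS core of the promoters was not tested. GABPA had 18.8, 17.1 and 7.83 CPM in 1CT and 19.2, 30.02 and 20.7 CPM in 1CT-A, so its lowest value came from the 1CT library numbered 3. Its call was lost without that library (log2 fold change 0.35, edgeR adjusted p = 0.089), without replicate 2 of 1CT-A (0.42, 0.21) and without replicate 3 of 1CT-A (edgeR adjusted p = 0.053), which left 6 regulators called in each of these fits. GABPA was also lost with the GC correction (edgeR adjusted p = 0.055), with upper-quartile normalization (0.059) and with at least 10 counts in every library (0.053).

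NRF1 had 6.74, 7.12 and 6.16 CPM in 1CT and 11.5, 11.3 and 10.2 CPM in 1CT-A (log2 fold change 0.68, SE 0.15, edgeR adjusted p = 0.0020). YY1 had 47.0, 45.8 and 48.5 CPM in 1CT and 71.0, 72.5 and 74.4 CPM in 1CT-A (log2 fold change 0.59, SE 0.08, edgeR adjusted p = 4.2e-05). The lines did not overlap for either factor. PPRC1 (log2 fold change 0.54, edgeR adjusted p = 0.0049) and ESRRA (0.25, 0.0090) also rose. PPARGC1B, at 1.03 to 2.48 CPM, was not called (log2 fold change 0.09, edgeR adjusted p = 0.86), and PPARGC1A, with at most 3 counts in every library, failed the filter.

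The 84 tested genes of the cytosolic ribosome had 19 higher and 3 lower, or 22.6% higher, with a median log2 fold change of 0.08. The share higher was near the background of 25.0%, beside 58.4% of the MRP genes, and the difference between the families was not tested. By direction the cytosolic genes leaned the same way, with a log2 fold change above 0 for 70 of the 84, beside 6197 of 12514 genes tested. For 42 of the 84 the 1CT-A libraries lay wholly above those of 1CT, and for 2 wholly below. The shares of all genes tested were 31.8% and 27.9%. Without the 1CT library numbered 3, 38 cytosolic genes were higher and 3 lower, where 3252 of 6551 calls over all genes were higher. Among the 80 tested nuclear genes for subunits of the respiratory chain, 13 were higher (16.25%) and 11 lower, with a median of -0.02. Both shares were below the 25.0% higher and 26.0% lower of all genes tested. SDHA of the succinate dehydrogenase rose by a log2 fold change of 0.40 (edgeR adjusted p = 0.0012), while COX7A1, a cytochrome oxidase subunit known from muscle, lay between 29.0 and 32.4 CPM in 1CT against 2.54 to 2.98 CPM in 1CT-A (log2 fold change -3.55, edgeR adjusted p = 1.2e-09). The products of the mitochondrial ribosome itself are not among these nuclear genes.

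**Figure D5:**
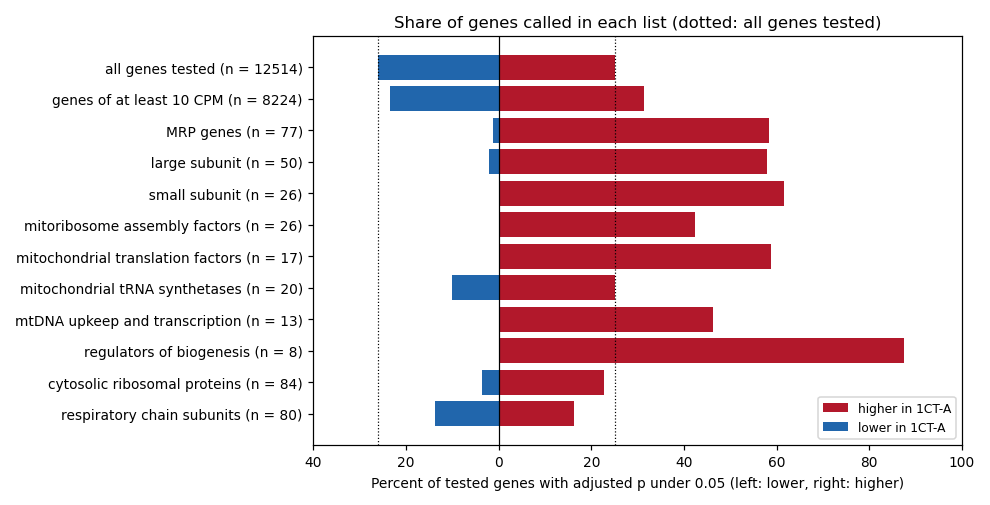
Percent of tested genes called higher in 1CT-A (red, to the right) and lower (blue, to the left) at an adjusted p under 0.05, for the mitochondrial ribosomal protein (MRP) genes, related lists and all genes; dotted lines mark all genes tested (25.0% and 26.0%). The MRP genes reach 58.4% higher, and the cytosolic ribosomal protein genes 22.6%, in the fit of every library. Without the 1CT library numbered 3, 38 of the cytosolic genes were higher, beside 19 here.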

How the data were processed

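Total RNA (500 ng a library) was sequenced from QuantSeq 3′ libraries on an Illumina NextSeq 500, per the labels. The authors deposited raw counts per gene symbol, 1 file a library, without normalization or pooling. The submitters' processing notes name Bowtie2, edgeR and hg19; the counting tool, annotation and use of strand are not given in the sources used here. The MRP genes, lists and tests were chosen with earlier results of these data known.

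Here repeated symbols were summed and CPM were taken from each file's total. All 6 libraries were fitted with edgeR 4.0.16 in R 4.3.3 (TMM normalization with factors from 0.975 to 1.02, filterByExpr with a minimum count of 10, quasi-likelihood test without a block, Benjamini-Hochberg adjustment over 12514 genes). With 3 libraries against 3, an exact permutation test of 1 gene cannot go below p = 0.1, so calls rest on this fit. DESeq2 1.42.0 and limma-voom (limma 3.58.1), other normalizations and filters, a replicate block and each library left out were alternatives. The code was tested on simulated counts.

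Genes were named by rule: the largest called changes among genes with at least 10 CPM, the 5 highest levels, MRPS18 paralogs, MRPS30, MRPS36, and the genes next to the threshold. From other lists came up to 2 of the largest called changes each way. GC content and exon overlaps came from GENCODE release 44, which may differ from the annotation of the authors.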

Additional observations from a re-analysis of the deposited data

How the results depend on the processing

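The number of MRP genes called (46) was 33 to 49 with 1 library left out, and the count higher (45) was 33 to 48. It was 42 with DESeq2 or with at least 10 counts in every library, 50 with library size only or no filter, 33 with upper-quartile normalization and 24 with the per-gene two-tailed test. The ratio of summed levels (1.22) was 1.20 to 1.23 with 1 library left out and 1.19 with TMM-normalized CPM. The median log2 fold change (0.29) was 0.24 to 0.29 with 1 library left out, 0.31 with DESeq2, 0.27 with at least 10 counts in every library, 0.32 with library size only, 0.33 without a filter and 0.23 with upper-quartile normalization, and the median over all genes was then -0.12, 0.00, 0.03, -0.10 and -0.06. Transfer RNA synthetases called (7) were 3 with DESeq2 and 3 to 6 with 1 library left out, lowest without replicate 3 of 1CT-A (3) and replicate 2 of 1CT-A (4). Cytosolic ribosomal protein genes called (22) were 34 with the GC correction, 9 with upper-quartile normalization and 10 to 41 with 1 library left out: 41 without replicate 3 of 1CT, 13 without replicate 2 of 1CT, 10 without replicate 2 of 1CT-A and 14 without replicate 3 of 1CT-A. Respiratory chain genes called (24) were 12 with the GC correction and 15 to 26 with 1 library left out, 15 without replicate 3 of 1CT-A. The causes were not tested. Upper-quartile normalization and the GC correction were chosen after seeing the data.

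Reversed signs concerned only log2 fold changes of genes that were not called. MRPS24 was 0.059 with the GC correction and -0.15 to 0.022 with 1 library left out. PTCD3 was -0.011 with upper-quartile normalization and -0.0050 to 0.10 with 1 library left out. AURKAIP1 was -0.0050 and -0.047 to 0.14 in these fits. GADD45GIP1 was 0.10 with the GC correction, 0.0078 with library size only, 0.014 without a filter and -0.11 to 0.039 with 1 library left out. PPARGC1B was -0.017 with the GC correction and -0.12 to 0.58 with 1 library left out. Of 791 values for named genes under an alternative, 715 kept their direction and side of the threshold, 52 lost and 10 gained a call.

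Libraries carry the labels' numbers 1 to 3 in each line, but same-numbered libraries did not deviate together (correlations of -0.16, 0.22 and -0.14). With the numbers as a replicate block 43 MRP genes were called, 42 of them also without it, and the median was 0.28. At 51 counts or more in every library, depth did not limit which MRP genes could be tested.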
